A study of Mus musculus with 12 samples.

Results

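The cells described here are the natural killer (NK) cells of cluster 7, taken from the authors' deposited annotation as the cells with cluster number 7 and the cell type label NK cells. They number 1877 of 45477 annotated cells, or 4.13%, and 16.1% of all cells labelled NK. The study placed B16-F10 melanoma cells in the skin of Rag1-deficient mice (B6.129S7-Rag1tm1Mom/J) and later transferred CD8+ T cells of the Pmel Thy1.1 type, which recognise a melanoma antigen, into each mouse. In 3 control mice the T cells had a vehicle treatment, and in 3 CAL-101 mice they had been exposed to CAL-101 in vitro. Live CD45.2+ cells from dissociated tumours were sequenced as single cells, with RNA and 102 antibody tags (95 antibodies and 7 isotype controls) counted in each. All 6 mice lacked Rag1, and the labels describe drug treatment only of the transferred T cells, so the NK cells belonged to the host and were compared by the T cells that their mouse received. The question asked of these cells was how they differed from the main NK population, cluster 0 with 7471 cells, and whether they differed between the 2 groups of mice.

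NK cells are innate lymphocytes that kill target cells by releasing granules that hold perforin, which forms pores, and granzymes, serine proteases that enter through them. Conventional NK cells circulate and carry CD49b and CD11b, whereas type 1 innate lymphoid cells (ILC1) and tissue-resident NK cells carry CD49a and often granzyme C. CD55 (decay-accelerating factor) protects a cell from complement, and CD61 is the integrin beta3 chain, which pairs with alphaV. CD90.2 is the host's form of the Thy1 protein, while the transferred T cells carry CD90.1. CAL-101, or idelalisib, inhibits the delta isoform of phosphoinositide 3-kinase.

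The members came from every mouse, with 321, 741 and 377 cells in control mice 1 to 3 and 195, 93 and 150 cells in CAL-101 mice 1 to 3. They were large in RNA: the median member had 16961 unique molecular identifiers (UMIs, counted RNA molecules) and 3990 genes, against 6269 UMIs and 2353 genes for cluster 0. Within each mouse the median member had 2.58 to 2.86 times the UMIs and 1.98 to 2.41 times the antibody tags of the median cluster 0 cell. A doublet score (Scrublet) put 82 members and 133 cluster 0 cells among the 2806 highest-scoring cells of the series. UMIs of the T cell genes Trac, Cd8a, Cd8b1 and Cd3e summed to 3 or more in 108 members. The gene comparisons below were repeated without each of these sets of cells. For each mouse the UMIs of a cluster were summed over its cells and expressed as CPM, the gene's count relative to all UMIs of those cells on the per-million scale. A log2 ratio between clusters is the difference in log2(CPM + 5) within a mouse, and the median over the 6 mice is given. Because the clusters were made from these same cells, differences between clusters 7 and 0 are described and not tested.

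The NK label held in the data. Ncr1, which encodes the activating receptor NKp46, stood at 203 ± 26.9 CPM in members and 212 ± 46.7 CPM in cluster 0 (mean ± SD, n = 6 mice), and at 1.20 CPM in the T cells of clusters 1 to 5. Klrb1c, the gene of NK1.1, stood at 257 ± 47.0 CPM in members and 433 ± 26.5 CPM in cluster 0, against 4.82 CPM in those T cells. Klre1, an NK receptor chain, stood at 307 ± 47.4 CPM in members and 374 ± 110 CPM in cluster 0. Of 12 NK identity genes, 0 were higher in members in all 6 mice and 7 were lower, with a median log2 ratio of -0.31. Over all 9735 genes of at least 5 CPM in either cluster, 22.7% were higher in all 6 mice and 35.8% were lower, with a median of -0.08. Eomes, the transcription factor that marks NK cells more than ILC1, was close in both clusters at 111 and 119 CPM. Antibody tags for CD3 took 0.261% of member tags and 0.411% of cluster 0 tags. They took 0.489% in those T cells and 0.404% in neutrophils, so this tag separated cell types little. CD8b tags took 0.236% in members, 0.202% in cluster 0 and 5.78% in those T cells, and CD8a tags 0.371, 0.370 and 7.08%.

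Defining markers of other cells were at or near 0 in members, although several marker lists as a whole were not. Clec9a of dendritic cells, Il22 and Il17a of type 3 innate lymphoid cells, Cdh5 of endothelium, and Fcer1a and Prss34 of mast cells and basophils had no UMI. The macrophage genes Lyz2 and C1qb stood at 0.0777 and 0.0405 CPM, but the summed list of 10 monocyte and macrophage genes spanned 677 to 737 CPM in control members, 496 to 540 in CAL-101 members and 360 to 454 in cluster 0. Ccr2 (278 CPM in members) and Ly6c2 (323 CPM) made up most of that sum. In the same way Klrg1, Gata3 and Rora filled the type 2 innate lymphoid list and Pecam1 (196 CPM) the endothelial list. Of the T cell list, Trac stood at 20.1 CPM in members and 27.1 in cluster 0, and Cd8a at 12.9 and 22.0. The summed T cell list, most of it from Trbc1 and Trbc2, spanned 1102 to 1323 CPM in control members, 1155 to 1213 in CAL-101 members and 1206 to 1574 in cluster 0. Mcpt8, a basophil protease gene, had 10.6 CPM in members and 0.315 in cluster 0. The basophil and mast cell list that holds it spanned 7.55 to 24.0 CPM in control members, 7.16 to 15.9 in CAL-101 members and 0.451 to 2.95 in cluster 0. Kit, the stem cell factor receptor gene, was higher in members in all 6 mice (68.5 against 35.8 CPM). The type 3 innate lymphoid list that holds it spanned 70.1 to 87.4 CPM in control members, 50.2 to 65.8 in CAL-101 members and 28.9 to 47.6 in cluster 0. The part of such cells in the results was not tested. The red cell list summed to 224 CPM and the neutrophil list to 61.0 CPM at the highest, both in members of control mouse 1.

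From cluster 0, members stood apart most by a block of granzymes. Granzymes C, D, E, F and G together made up 2.64, 2.16 and 3.47% of all member UMIs in control mice 1 to 3 and 1.76, 3.81 and 1.82% in CAL-101 mice 1 to 3. In cluster 0 the same 5 genes made up 0.0430 to 0.0847%. Gzmc stood at 9632, 11380 and 10191 CPM in members of control mice and 11725, 17085 and 13179 in CAL-101 mice. In cluster 0 it ranged from 313 to 821 CPM, so every mouse's members lay above every cluster 0 value, and the log2 ratio was 4.76. Gzmd stood at 4525 ± 2233 CPM in members and ranged from 6.14 to 39.2 in cluster 0, a log2 ratio of 7.28. The ratios of Gzmg, Gzme and Gzmf were 7.51, 6.60 and 6.49.

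The cluster 0 values of Gzmd to Gzmg were near those of neutrophils, whereas Gzmc was higher in cluster 0, at 508 CPM against 127 in neutrophils. Free RNA was not measured, and its part in these values was not tested. Neutrophils, which should not transcribe these genes, held 29.4 ± 27.1 CPM of Gzmd and 63.9 ± 73.7 CPM of Gzmf, against 22.0 and 53.6 CPM in cluster 0. When each cell was thinned to 1600 UMIs, a Gzmc UMI was found in 90.9 ± 1.76% of members, 25.4 ± 6.14% of cluster 0 cells and 18.0 ± 11.7% of neutrophils (without thinning, 97.9, 54.0 and 36.8%). A Gzmd UMI was found in 50.7 ± 15.1% of thinned members, 2.84% of cluster 0 cells and 5.31% of neutrophils. Thinning kept all members and left out 12 cells of cluster 0 and 14 of 414 neutrophils. The median neutrophil had 3176 UMIs.

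**Figure D1:**
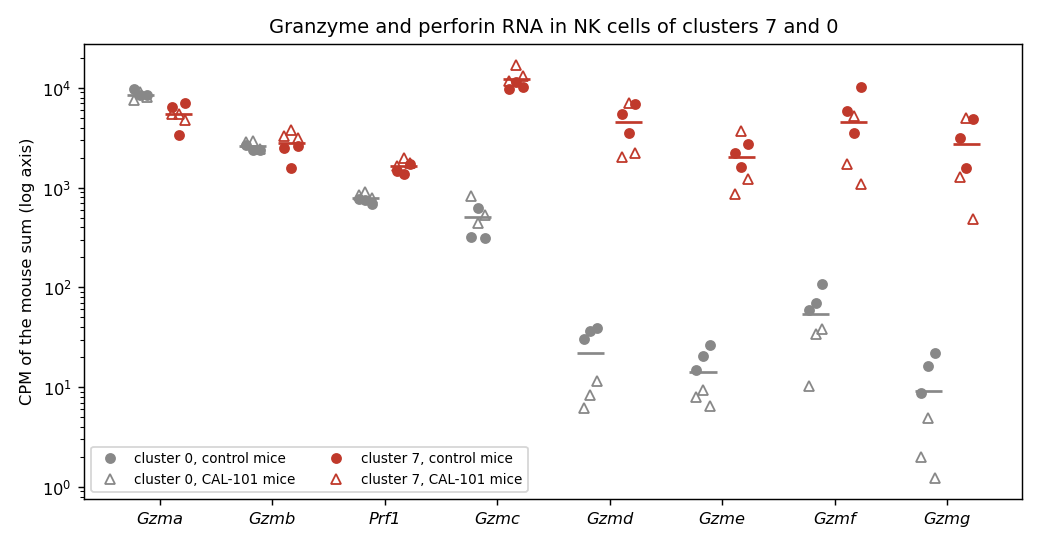
CPM (log axis) of granzyme and perforin genes, one point per mouse, in NK cells of cluster 7 (red) and cluster 0 (grey); filled circles are control mice, open triangles CAL-101 mice, and bars the mean over 6 mice. Gzmc to Gzmg separate the clusters in every mouse, whereas Gzmb overlaps and Gzma is lower in cluster 7.

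The other cytotoxic genes differed less, and not all in 1 direction. Gzma, a tryptase granzyme, was lower in members at 5427 CPM against 8561, in all 6 mice, with a log2 ratio of -0.66. Gzmb, the main apoptosis-inducing granzyme, was 2828 and 2603 CPM, higher in 4 of 6 mice. Prf1, which encodes perforin, was higher in all 6 mice at 1660 CPM against 788, and Gzmk was lower at 9.57 against 26.1. In all, 7 of 13 measured members of the granzyme and perforin list were higher in all 6 mice and 2 were lower. Over all genes of at least 5 CPM the shares were 22.7 and 35.8%. Of the serpins that inhibit granzymes, Serpinb6a was higher (195 against 70.0 CPM), while Serpinb9, which blocks granzyme B, was lower (388 against 519 CPM).

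Genes Gzmb to Gzmg lie side by side with mast cell protease genes on the minus strand of chromosome 14 (GRCm38.p6; Gzme at 56117619 to 56120625, Gzmd at 56129556 to 56132603, Gzmg at 56156581 to 56159579, Gzmf at 56205263 to 56211407, Gzmc at 56231397 to 56241647 and Gzmb at 56258836 to 56262334). The difference extended to the neighbours of Gzme: Ctsg, which encodes cathepsin G of myeloid granules, had 1520 UMIs in members and 11 in cluster 0, and Mcpt8 had 340 and 13. Gzmn, between Gzmg and Gzmf, had 131 UMIs in members and 2 in cluster 0. Ctsg varied between mice, at 90.1, 25.0 and 65.1 CPM in controls and 3.88, 105 and 3.58 CPM in CAL-101 mice. At the far end of the locus Cma1, a chymase gene at 55941451 to 55944675, went the other way, with 2.84 CPM in members and 38.3 in cluster 0. Mcpt1 and Mcpt2 had no UMI in either cluster. The granzyme D and E genes are near-identical copies, so reads could be split between them and their separate values are uncertain.

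The upstream sequences are shown because Gzmc to Gzmg, the genes far higher in members, resemble each other there more than they resemble Gzmb, which was not. Each sequence is the 200 bases before the start in the RefSeq promoter table (GRCm38.p6, minus strand, 5′ to 3′), 1 start per gene. For Gzmc that start lies inside the gene span given above, so its window is not upstream of the whole gene. The Gzmd window, from 56132594, also overlaps its gene span, which reaches 56132603. So does the Gzmn window, from 56174600, with a span that reaches 56174612. Capitals mark matches, on either strand, to the RUNX motif TGTGGT, the AP-1 motif TGANTCA and the CRE motif TGACGTCA.
Gzmc, chr14:56234658-56234857: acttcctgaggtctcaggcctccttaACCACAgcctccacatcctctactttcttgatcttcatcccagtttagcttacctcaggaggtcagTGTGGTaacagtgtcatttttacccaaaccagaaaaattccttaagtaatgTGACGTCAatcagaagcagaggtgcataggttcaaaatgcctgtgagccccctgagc
Gzmd, chr14:56132594-56132793: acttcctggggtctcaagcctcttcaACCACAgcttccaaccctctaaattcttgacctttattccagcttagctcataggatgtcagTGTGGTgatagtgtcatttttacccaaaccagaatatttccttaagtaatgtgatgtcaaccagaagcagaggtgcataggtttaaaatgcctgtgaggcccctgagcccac
Gzmg, chr14:56159580-56159779: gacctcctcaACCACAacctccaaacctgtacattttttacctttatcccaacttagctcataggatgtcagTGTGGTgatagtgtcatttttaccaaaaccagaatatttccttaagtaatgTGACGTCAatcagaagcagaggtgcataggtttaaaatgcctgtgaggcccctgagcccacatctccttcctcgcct
Gzmb, chr14:56262335-56262534: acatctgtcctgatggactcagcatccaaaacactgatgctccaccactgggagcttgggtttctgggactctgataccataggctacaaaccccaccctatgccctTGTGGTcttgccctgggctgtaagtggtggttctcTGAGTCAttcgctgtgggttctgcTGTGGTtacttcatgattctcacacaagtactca
Aligned over this window, the 5 genes Gzmc to Gzmg were 67.6 to 94.0% identical to each other, Gzmd and Gzme most, and 34.1 to 46.9% identical to Gzmb. Gzmn, also higher in members in all 6 mice, was 42.8 to 46.2% identical to these 5 and 51.4% to Gzmb. Whether likeness of sequence bears on the RNA levels was not tested. All 5, and Gzmb, held 2 RUNX matches, whereas Gzmn held 0. A RUNX match occurs in 11.16% of 32841 mouse promoters of this length, and 0.87% hold 2 or more. Gzmc, Gzmf and Gzmg held a CRE match, a motif chosen after the sequences were seen and found in 1.47% of promoters. Gzmb held an AP-1 match, found in 5.48%, and the T-box motif AGGTGT (9.31%) and the STAT motif TTCNNNGAA (5.49%) matched none of the 7 promoters. A match describes letters only.

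With the granzymes counted, 144 genes of at least 20 CPM were 2-fold or more higher in members and 278 were 2-fold or more lower, in the same direction in all 6 mice. Beside proteases, the 12 with the largest ratios included Myo10, a filopodial myosin (567 against 26.1 CPM, log2 ratio 4.16), the glycosyltransferase gene Galnt18 (101 against 0.604 CPM) and the actin-binding Synpo2 (111 against 2.65 CPM). Basp1 (213 against 9.39 CPM), the orphan receptor gene Gpr141 (144 against 9.14 CPM) and the semaphorin gene Sema6d (255 against 18.7 CPM) were also among them. Spp1, which encodes osteopontin, a secreted matrix protein, lay outside the 12 genes and was chosen after its values were seen. It stood at 4556 ± 1426 CPM in members, with a lowest value of 2988, and at 531 ± 158 CPM in cluster 0, with a highest of 770.

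The lowest ratio belonged to Ccl5, a chemokine gene strongly transcribed in conventional NK cells. It stood at 615, 501 and 612 CPM in control members and 416, 332 and 304 in CAL-101 members, against 5173 to 10108 CPM in cluster 0, a log2 ratio of -3.98. The chemokine genes Ccl4 (130 against 632 CPM) and Ccl3 (18.6 against 119 CPM) were lower as well. So were Ust, a sulfotransferase gene (39.0 against 312 CPM), Ppargc1a, a regulator of mitochondrial genes (3.34 against 50.8 CPM), and Abcg1, a cholesterol exporter gene (3.02 against 42.3 CPM). Ccl1 went the other way, at 91.7 CPM in members and 15.2 in cluster 0. Of 13 measured cytokine and chemokine genes, 3 were higher in all 6 mice and 6 lower, Ifng among the latter at 96.2 against 175 CPM. The higher count was near the background, since 22.7% of all genes of at least 5 CPM were higher and 35.8% lower.

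ILC1 and tissue-residency genes were mixed. Of 14 measured genes on that list, 6 were higher in members in all 6 mice and 4 were lower. Among all genes of at least 5 CPM, 22.7% were higher and 35.8% lower. Itga1, the gene of CD49a, was higher at 91.2 ± 36.1 CPM against 24.1 ± 8.89, and its highest cluster 0 value (33.9 CPM) lay below its lowest member value (50.7 CPM). Inpp4b, a phosphoinositide phosphatase gene, was higher at 314 against 127 CPM, and Il2ra, the alpha chain of the interleukin-2 receptor, at 55.2 against 28.6 CPM. Tnfsf10, the gene of TRAIL, had a log2 ratio of 0.71. Other residency genes were low in both clusters: Itgae (CD103) had 3.34 and 4.46 CPM, Cxcr6 6.28 and 5.70, and Zfp683 (Hobit) 0.347 and 0.151. Il7r was lower in members at 10.1 against 19.2 CPM. Cd69 was lower in all 6 mice by a small amount, at 155 against 187 CPM.

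Genes of circulating, mature NK cells were mostly lower. Of 21 measured genes, 13 were lower in all 6 mice and 2, Prf1 and Klrg1, were higher, with a median log2 ratio of -0.97. Among all genes of at least 5 CPM, 35.8% were lower and 22.7% higher. Klf2, a transcription factor of quiescence and trafficking, was 88.9 against 386 CPM. Itga2 (CD49b) was 34.5 against 130 CPM, Itgam (CD11b) 16.0 against 79.4, and the NK maturation factors Tbx21 and Zeb2 were 112 against 272 and 92.0 against 232 CPM. S1pr1 and S1pr5, receptors for leaving tissue, were low in both clusters, at 0.287 and 0.178 CPM in members and 5.55 and 3.85 in cluster 0. Klrg1, an inhibitory receptor of late NK cells, went against the list at 284 against 102 CPM.

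The antibodies gave the same cells a surface profile of high CD55, CD61, KLRG1 and CD90.2 and low CD49b. The barcodes that were counted for these antibodies, as the deposited feature table gives them (capitals throughout, since each whole barcode is the count's target), are:
CD55: ATTGTTGTCAGACCA
CD61: TTCTTTACCCGCCTG
CD90.2: CCGATCAGCCGTTTA
KLRG1: GTAGTAGGCTAGACC
CD49b: CGCGTTAGTAGAGTC
CD55 took 10.4, 7.20 and 13.6% of member tags in control mice 1 to 3 and 6.80, 11.1 and 6.72% in CAL-101 mice, against 1.04 to 1.46% in cluster 0, so the clusters did not overlap. CD61 took 5.14 to 7.57% in members and 0.749 to 1.31% in cluster 0, and CD90.2 took 4.16 to 5.97% and 1.66 to 2.50%. KLRG1 took 4.63 ± 0.422% and 1.17 ± 0.0590%. The CD90.2 and CD55 shares were therefore higher in members in every mouse, which describes the cluster and tests nothing.

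Members carried more tags per cell, which bears on shares: all 7 isotype controls had a lower share in members in all 6 mice (median log2 ratio -0.68) yet more tags per cell (0.54). Of 95 antibodies, 17.9% had a higher share in all 6 mice and 64.2% a lower one. Ratios of tags per cell relative to the isotype controls are therefore given next, while values in percent here and below remain shares of tags. On that scale CD55 was 3.43, CD61 3.31, KLRG1 2.69 and CD90.2 1.94 higher on the log2 scale. CD31, an adhesion molecule, was 2.29, CD45R/B220 2.12, Ly-6A/E (Sca-1) 1.85, the amino acid transporter chain CD98 1.52 and CD48 1.40. CD11b was -1.03, the activating receptor Ly49D -0.78 and integrin beta7 -0.75. CD49d, CD183, CD73, CD169 and MERTK had lower shares by the same rule, but lay between -0.27 and -0.15 relative to isotype controls. CD49b, the conventional NK marker, took 2.45 ± 0.509% of member tags and from 6.28 to 9.01% of cluster 0 tags. CD49a was 1.18 and CD69 0.80, while CD103 was -0.06 and NK1.1 -0.11.

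**Figure D2:**
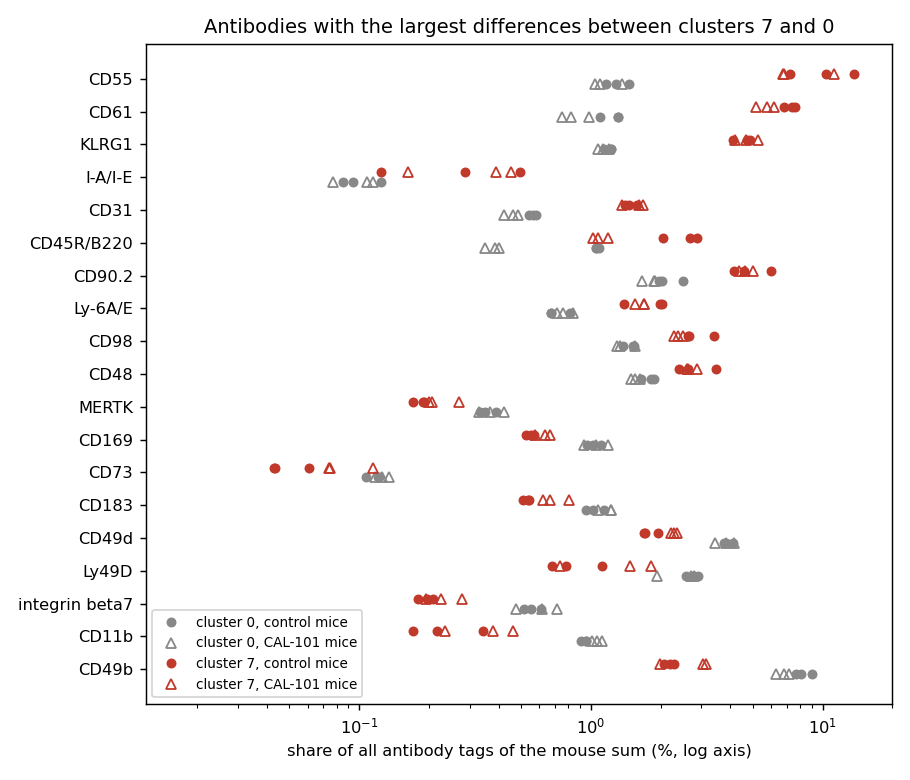
Share of all antibody tags (%, log axis) for 10 antibodies with a higher and 9 with a lower share in members, those with the largest ratios, one point per mouse; red is cluster 7, grey cluster 0, filled circles control mice and open triangles CAL-101 mice. CD55, CD61, KLRG1 and CD90.2 separate the clusters in every mouse above, and CD49b and CD11b below.

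RNA and protein ratios were close for some molecules and far apart for others. Over 41 antibodies with a measured gene, the RNA and isotype-relative protein log2 ratios had a Pearson r of 0.76 and a Spearman rho of 0.82, and 24 had the same sign; the points share the same cells and libraries. Cd55 RNA was 251 ± 79.9 CPM in members and 44.6 ± 4.63 in cluster 0, a log2 ratio of 2.10. Itgb3, the gene of CD61, had a log2 ratio of only 0.65 (139 against 85.7 CPM) beside 3.31 for its antibody, and its partner Itgav one of 0.89 (530 against 283 CPM). Thy1, the gene of CD90, was 456 ± 39.5 CPM against 223 ± 29.7, a ratio of 1.05 beside 1.94 for the antibody. Havcr2, the gene of the inhibitory receptor TIM-3 (CD366), had the larger ratio in RNA, 2.91 (98.5 against 7.98 CPM), and 1.08 in protein. Slc3a2, the gene of CD98, was lower in RNA (-0.54) and higher in protein (1.52).

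**Figure D3:**
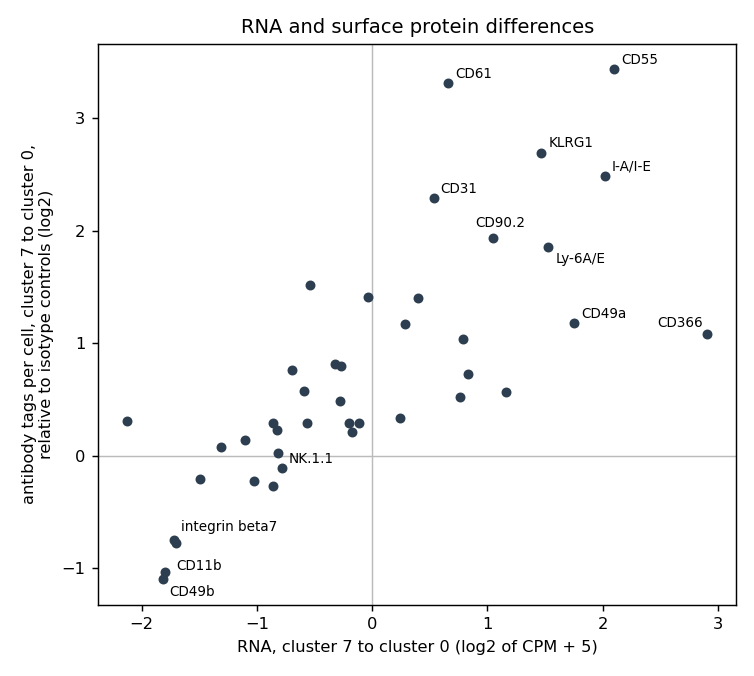
Log2 ratio of cluster 7 to cluster 0 in RNA (horizontal, median over 6 mice) and in antibody tags per cell relative to isotype controls (vertical) for 41 antibodies with a measured gene. CD55 lies at the upper right, and CD61 has a far larger ratio in protein (3.31) than in RNA (0.65).

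Other gene groups also differed in direction. Genes of the TGF-beta pathway, a cytokine linked to ILC1 traits in NK cells, were lower in all 6 mice for 12 of 13 measured genes, among them Pmepa1 (21.8 against 107 CPM) and Smad3 (73.1 against 284 CPM). The exception was the receptor gene Tgfbr2 (321 against 224 CPM). Of 14 type I interferon response genes, 12 were lower in all 6 mice and 0 higher. The cytokine receptor genes Il12rb2 (196 against 688 CPM), Il18r1 (43.0 against 162 CPM) and Il18rap (111 against 281 CPM), which take up activating signals from myeloid cells, were lower. Of 11 measured AP-1, NR4A and EGR genes, induced by receptor signals, 9 were lower in all 6 mice and 1 was higher. Beside these lists, 35.8% of all genes of at least 5 CPM were lower in all 6 mice and 22.7% higher.

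Growth-related genes went the other way. Of 14 glycolysis genes, 11 were higher in all 6 mice and 1 was lower, with Pgk1 at 611 against 285 CPM and Ldha, lactate dehydrogenase, at 957 against 533. Of 16 proliferation genes 13 were higher and 0 lower, by a median log2 ratio of 0.62. Mki67 was 36.0 CPM in members, 22.8 in cluster 0 and 495 in the NK cells of cluster 8. Among inhibitory and costimulatory receptors, Havcr2, Tnfrsf9 (1011 against 613 CPM) and Lag3 (28.7 against 13.7 CPM) were higher, while Tigit (11.4 against 32.5 CPM) and Cd27 (25.1 against 69.8 CPM) were lower. The Ly49 genes were lower in all 6 mice for 5 of 8, with Klra5 (49.2 against 28.0 CPM) higher. The background for these counts was again 22.7% of all genes higher and 35.8% lower.

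Class II antigen presentation genes were higher in members: H2-Ab1 stood at 43.7 to 79.6 CPM against 7.93 to 16.9, Cd74 at 71.1 against 15.1 CPM on average, and the I-A/I-E antibody was 2.49 higher on the log2 scale relative to isotype controls. The dendritic cell list that holds them summed to 117 to 329 CPM in control members, 79.0 to 251 in CAL-101 members and 28.5 to 59.1 in cluster 0. Its other members were at or near 0 in cluster 7: Clec9a had no UMI, and Flt3 stood at 0.129 and Xcr1 at 0.781 CPM. After thinning, 7.12 ± 1.98% of members and 1.68% of cluster 0 cells had an H2-Ab1 UMI, and 1.85% of neutrophils.

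Members were not uniform in the granzyme block. The share of a cell's UMIs from Gzmd, Gzme, Gzmf and Gzmg had a median of 0.344, 0.147 and 0.514% in control mice 1 to 3 and 0.00699, 0.221 and 0.0279% in CAL-101 mice, and a 90th percentile between 0.882 and 5.70%. The share was at least 1% in 457 members and in 1 cell of cluster 0, from 0.1 to 1% in 599 members, and below 0.1% in 821. These are ranges along a continuum, with 223 members within 1.5 times of 1%. The high range held 100, 152 and 147 members in control mice 1 to 3 but only 17, 27 and 14 in CAL-101 mice. The median UMIs per cell were 14775, 16910 and 22094 from the low to the high range, and the part of depth in the gradient was not tested.

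Other genes and antibodies were graded along the same ranges, in the same cells. Spp1 averaged 2840, 4183 and 6897 CPM from the low to the high range, Cd55 99.8, 196 and 474 CPM, and Itga1 33.7, 95.0 and 153 CPM, and each was higher in the high range in 6 of 6 mice, as were 7.07% of 9645 genes of at least 5 CPM. The CD55 antibody took 3.97, 7.77 and 16.0% of tags, KLRG1 3.17, 4.73 and 6.23%, and CD61 4.84, 6.66 and 8.36%. Lower in the high range in 6 of 6 mice were Ccl5 (851, 445 and 132 CPM), Il12rb2 (287, 187 and 87.7 CPM) and the antibody Ly49D (1.65, 1.14 and 0.343%). So were 17.7% of these genes and 65.7% of the 102 antibody features, isotype controls among them, while 7.84% of the features had a higher share, so a lower share was the background for antibodies. Eomes stood at 108, 111 and 109 CPM. Already in the low range the CD55 antibody share exceeded the highest cluster 0 value of 1.46%.

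**Figure D4:**
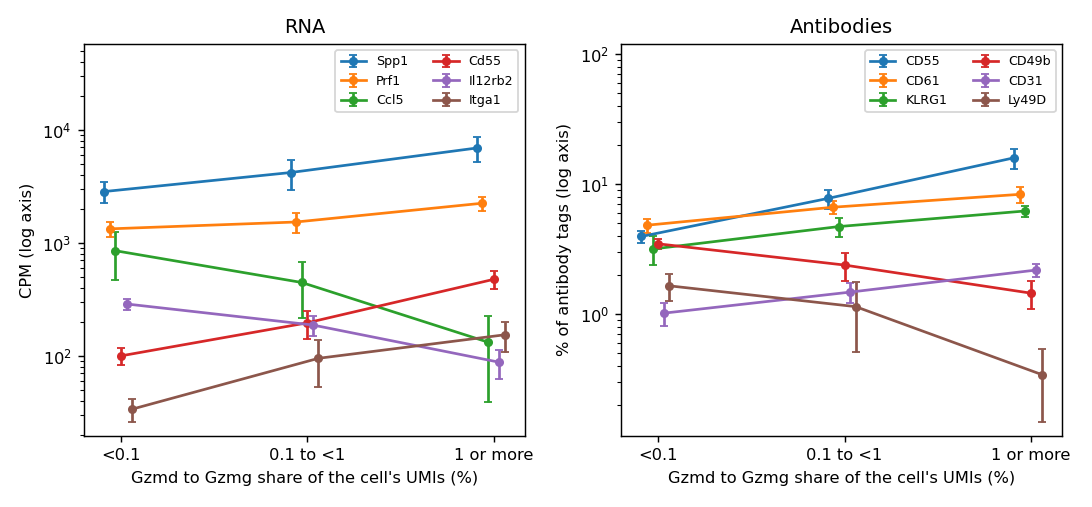
Mean CPM (left) and mean share of antibody tags (right), both on log axes, in members split by the Gzmd to Gzmg share of their UMIs; error bars are the SD over 6 mice. Spp1, Cd55 and CD55 protein climb from the low to the high range while Ccl5, Il12rb2 and Ly49D protein descend.

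Cluster 7 lay between cluster 0 and the 67 NK cells of cluster 13 in several of these values. Gzmc averaged 508, 12199 and 19331 CPM in clusters 0, 7 and 13, Gzmg 9.20, 2730 and 31118 CPM, and the CD55 antibody 1.23, 9.31 and 21.3% of tags. Other values were higher in cluster 7 than in clusters 0 and 13. In the same order Itga1 averaged 24.1, 91.2 and 23.8 CPM, Itgb3 85.7, 139 and 31.3 CPM and Thy1 223, 456 and 349 CPM. The CD90.2 antibody averaged 1.99, 4.78 and 3.84% of tags. The CD61 antibody, for the Itgb3 protein, was instead highest in cluster 13, at 1.04, 6.47 and 11.6%. In the NK cells of cluster 9 Itgb3 averaged 140 CPM, close to cluster 7. Cluster 13 held only 3, 8 and 5 NK cells in CAL-101 mice 1 to 3. The NK cells of cluster 8 also lay above cluster 0, at 4851 CPM of Gzmc, 948 CPM of Gzmd, 1929 CPM of Spp1 and 4.04% of tags for the CD55 antibody, where cluster 0 had 508, 22.0 and 531 CPM and 1.23%. Cluster 7 also held 159 cells labelled as T cells. These had 8920 CPM of Gzmc and 88.3 CPM of Trac, and the CD8a antibody took 2.36% of their tags against 0.371% in members.

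The members' share of all NK-labelled cells did not separate the groups of mice. It was 14.8, 21.2 and 15.1% in control mice 1 to 3 and 9.53, 16.3 and 16.4% in CAL-101 mice, a difference of -2.99 points (exact two-sided permutation test, p = 0.6; with 3 against 3 mice the smallest possible p is 0.1). Of all cells, members made up 3.80, 9.60 and 4.12% in control mice and 3.17, 1.29 and 2.21% in CAL-101 mice, which did not overlap (exact permutation p = 0.1). That share also depends on how many transferred T cells each tumour held. Members with at least 1% of UMIs from Gzmd to Gzmg made up 31.2, 20.5 and 39.0% of members in control mice and 8.72, 29.0 and 9.33% in CAL-101 mice, groups that overlapped (exact permutation p = 0.2).

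Inside cluster 7, a small set of genes differed between CAL-101 and control mice. Tested on the summed counts with edgeR's quasi-likelihood test, 88 of 11016 genes, or 0.799%, passed an adjusted p of 0.05, with 38 higher (0.345%) and 50 lower (0.454%) in CAL-101 mice, and 1827 passed an unadjusted p of 0.05. Most calls were close to the threshold: 51 had an adjusted p between 0.04 and 0.05. The number depended on single mice. It was 1 without control mouse 1, 300 without control mouse 2, 11 without control mouse 3, 5 without CAL-101 mouse 1, 67 without CAL-101 mouse 2 and 1 without CAL-101 mouse 3. All 88 kept their direction in each of these fits. The groups did not overlap for any of the 88 genes, nor for 22.0% of all genes tested.

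Cirbp, the cold-inducible RNA-binding protein gene, had the smallest adjusted p. It stood at 114, 112 and 107 CPM in control mice and 53.4, 54.6 and 45.8 in CAL-101 mice, a log2 fold change of -1.15 ± 0.101 (SE; edgeR adjusted p = 0.0015), and passed in all 6 fits that left out a mouse (adjusted p up to 0.0292). Its relative Rbm3 fell from 1343 to 1401 CPM in control mice to 817 to 954 (log2 fold change -0.69, edgeR adjusted p = 0.00648). Tsc22d3, a glucocorticoid-induced regulator, fell from 137 to 156 CPM to 69.5 to 89.5 (-0.85, edgeR adjusted p = 0.00648).

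Ly6c2, which encodes the surface antigen Ly-6C, fell from 396 to 468 CPM to 178 to 257 (log2 fold change -1.06, edgeR adjusted p = 0.0124), in 3 of the 6 fits without a mouse. Its near-identical neighbour gene Ly6c1 could share its reads. The Ly-6C antibody had a log2 fold change of -0.61 with an edgeR adjusted p of 0.264. Gstp3, a glutathione transferase gene (-1.05), Nrgn, the gene of the calmodulin-binding neurogranin (-0.96), Galnt18 (-0.92), Coq8b (-1.01) and Qrfp (-0.97) were the other lower genes with the largest changes among called genes of at least 20 CPM, Gm and Rik entries left out. Galnt18 averaged 35.6, 110 and 172 CPM from the low to the high granzyme range, and the part of the ranges in its call was not tested. Ccl5, already low in members, fell further (-0.75, edgeR adjusted p = 0.0343), but passed in only 1 of the 6 fits without a mouse.

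Genes of DNA replication and protein folding were among the higher calls. Pclaf, which encodes a partner of the replication clamp PCNA, stood at 39.3, 49.4 and 33.3 CPM in control mice and 84.2, 87.9 and 77.2 in CAL-101 mice (log2 fold change 0.98 ± 0.135, edgeR adjusted p = 0.0144). Pola1, the DNA polymerase alpha gene, rose by 0.84, the tubulin gene Tuba1b by 0.81, and Srm, spermidine synthase, by 0.87. The helicase genes Mcm5 and Mcm4 rose by 0.75 and 0.76 and the ligase gene Lig1 by 0.75, with Mcm4 and Lig1 chosen after their values were seen. Klf12, a transcription factor gene, rose from 30.5 to 34.7 CPM to 55.6 to 70.0 (0.94, edgeR adjusted p = 0.00648). The endoplasmic reticulum genes Creld2 (0.82) and Hsp90b1 (0.72, edgeR adjusted p = 0.0158) rose, as did Lrrc4 (0.83). Itga2, the gene of CD49b, rose from 22.8 to 26.9 CPM to 30.8 to 53.7 (0.82, edgeR adjusted p = 0.0441), while the CD49b antibody had a log2 fold change of 0.13 with an edgeR adjusted p of 0.836.

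**Figure D5:**
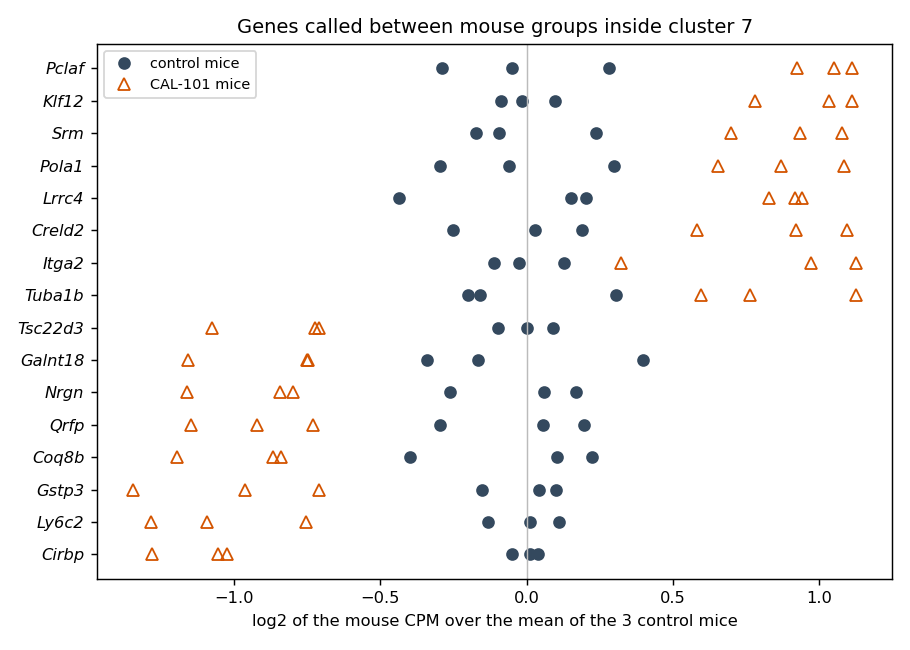
Log2 of each mouse's CPM over the mean of the control mice, in members, for the 8 genes with the largest called changes each way among genes of at least 20 CPM, Gm and Rik entries left out; filled circles are control mice and open triangles CAL-101 mice. Only genes whose groups do not overlap were eligible, so the separation follows from the choice of genes. Cirbp has the tightest control values, 107 to 114 CPM.

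By gene list, proliferation had 2 of 16 genes higher by edgeR, Pclaf and Mcm5, and all 16 had a log2 fold change above 0, with a median of 0.54 against 0.00 over all genes tested. In cluster 0 of the same mice that median was 0.32. Stress genes had 2 of 14 higher, Hsp90aa1 (0.50) and Hspe1 (0.40). Of the 10 genes taken from earlier results on these data, which are no independent support, 4 fell and Srm rose; the 4 were Cirbp, Rbm3, Camk4 (-0.65) and Gstp3. The maturity list had Ly6c2 and Ccl5 lower and Itga2 higher, and the NK receptor list had Klrb1b lower (-0.56). The ILC1, TGF-beta, interferon, glycolysis, cytokine receptor and inhibitory receptor lists had 0 calls. Over all genes tested 0.799% were called, so 0 calls in lists of this size says little. Of 14 interferon genes, 11 had a log2 fold change above 0 and 3 below, with a median of 0.35. Over all genes tested 5511 of 11016 lay above 0.

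The granzyme block did not pass. Gzmc had a log2 fold change of 0.40 (edgeR adjusted p = 0.165) and Gzmb one of 0.58 (adjusted p = 0.128), each with groups that did not overlap. Gzmf stood at 5847, 3538 and 10118 CPM in control mice and 1725, 5263 and 1084 in CAL-101 mice, a log2 fold change of -1.29 ± 0.511 (edgeR adjusted p = 0.235), and Gzmd was -0.51 ± 0.413. CAL-101 mouse 2 lay within the control values for Gzmf, while CAL-101 mice 1 and 3 lay below them. Without CAL-101 mouse 2 Gzmf passed (-2.28, edgeR adjusted p = 0.0359). That mouse is singled out here by its value, so this fit is no support for a difference. In cluster 0, where Gzmd stood near its level in neutrophils (22.0 against 29.4 CPM), it fell by 2.22 on the log2 scale (edgeR adjusted p = 2.3e-05). Xcl1, a chemokine for dendritic cells, had 1.21 (edgeR adjusted p = 0.11), Hspa1a 1.23 (0.202), Hspa1b 1.06 (0.256), Cdk1 0.63 (0.15), Ccr7 -1.11 (0.108) and Pik3ip1 -0.84 (0.228). Il7r, the interleukin-7 receptor gene, stood at 13.5 and 6.75 CPM on average in control and CAL-101 mice (edgeR adjusted p = 0.0744). Among the markers, Klre1 had 0.33 and Ncr1 0.24 (edgeR adjusted p = 0.0907 and 0.222).

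Of the 102 antibodies and isotype controls, 1 passed between the groups of mice, 0.98% of those tested, and 18 passed an unadjusted p of 0.05. It was CD45R/B220, an isoform epitope of CD45, at 2.69, 2.04 and 2.86% of tags in control mice and 1.02, 1.18 and 1.08% in CAL-101 mice (log2 fold change -1.41 ± 0.145, edgeR adjusted p = 0.00719). Fold changes of antibodies are TMM-scaled, so they differ from ratios of these shares. The lowest adjusted p of that test was 0.0637 without control mouse 1, and 0.0525, 0.0589 and 0.105 without CAL-101 mice 1, 2 and 3. CD61 took 6.83, 7.38 and 7.57% and 5.74, 6.18 and 5.14%, without overlap, but did not pass (-0.56 ± 0.112, edgeR adjusted p = 0.1). CD55 (-0.56) and CD90.2 (-0.28) had overlapping groups, with edgeR adjusted p of 0.426 and 0.519. Groups did not overlap for 49.0% of the features tested, 5 of the 7 isotype controls included, and the share was higher in CAL-101 mice for 46 of these 50. Tags per cell were also fewer in the members of CAL-101 mice 2 and 3, with medians of 1234 and 1302 against 1827 to 2099 in control mice; their part in these shares was not tested.

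The same comparison in cluster 0, on the same mice, called 610 of 12445 genes, or 4.9%. They included 51 of the 88 called in cluster 7, which is 58.0% of the cluster 7 calls and 8.36% of the cluster 0 calls, and all 51 had the same direction. The difference of the effects between the 2 clusters, tested with limma on paired log2 values, passed for 0 of 11016 genes (0.0%), with 778 at an unadjusted p of 0.05. For Cirbp the change was -1.15 in cluster 7 and -0.91 in cluster 0 (difference -0.25, limma adjusted p = 0.692). For Ly6c2 it was -1.06 and 0.18 (difference -1.19, limma adjusted p = 0.661). The CD45R/B220 antibody changed by -1.41 in cluster 7 and -1.54 in cluster 0 (edgeR adjusted p = 0.00719 and 0.000516). Differences of antibody effects were not tested. A change particular to cluster 7 was therefore not detected.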

How the data were processed

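RNA and antibody tags were measured in the same cells of 6 mice, 3 per group, with 2 sample records per mouse. The matrices hold raw counts (UMIs) of 32285 genes and 102 antibody features, deposited by the authors; the file headers give Cell Ranger 7.1.0, and the submitters' processing notes name mm10 and Seurat. Clusters and cell type labels are the authors' deposited annotation; no source used here says how the clusters were computed. Counts were summed per mouse over the cells of a cluster, giving 2013143 to 14710830 RNA UMIs and 141326 to 1852186 tags for cluster 7.

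CAL-101 and control sums were compared with edgeR 4.0.16 (quasi-likelihood test, TMM scaling, low counts filtered with filterByExpr) and Benjamini-Hochberg adjustment over all features, shares of cells with an exact permutation test, and the difference of effects with limma 3.58.1 on log2 CPM (prior count 2). Antibody counts were scaled in the same way, on their tag totals. R was 4.3.3, Python 3.11.15, DESeq2 1.42.0 (an alternative) and scanpy 1.11.5. Ratios between clusters add 5 CPM and are computed within each mouse. Named genes were the 12 largest ratios each way among genes of at least 20 CPM with 1 direction in all 6 mice, the 8 largest called changes each way of at least 20 CPM, members of gene lists, and the 10 antibodies with the largest ratios each way. The cells, gene lists and tests were chosen with earlier results of these data known. The labels give each mouse its own library, so p-values measure the spread between mice, and counts of replicate mice differed beyond sampling noise (chi-square per degree of freedom from 2.74). Intervals and floors were not needed for the sums.

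Scrublet's automatic call marked only 112 of 45477 cells, 2 of them members, and its threshold was not checked. As an alternative, cells with the highest scores, 0.8% per 1000 cells of a library, were left out. All members were kept in the main results, among them 24 with over 20% mitochondrial UMIs or under 1000 UMIs, and 1 member barcode occurred in more than 1 library. On simulated data with 10869 genes in this comparison, 96% of genes changed by a log2 of 2 were recovered, 78% at 1 and 46% at 0.585, with 18 false among 167 calls. Promoter sequences were read from RefSeq (GRCm38.p6) and aligned with biopython 1.88. Some listed genes and 1 antibody are not reported here by name, and that antibody was left out of the comparison of RNA with protein.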

Additional observations from a re-analysis of the deposited data

How the results depend on the processing

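The comparison of CAL-101 with control members is limited by 3 mice a group and by small members' numbers in CAL-101 mice. The 88 called genes became 212 with DESeq2, 673 with no filter on low counts, 148 with all cells of cluster 7 whatever their label and 49 with sums thinned to the smallest mouse total, and ranged from 1 to 300 when a mouse was left out. The cause was not tested. The count was 84 with DESeq2 size factors, 127 at 20 CPM or more, 87 without low-quality cells, 76 without the highest Scrublet scores and, chosen after seeing the data, 72 without cells of 3 or more T cell UMIs. The main calls that were tested kept their direction under each of these settings. Antibody calls numbered 8 with DESeq2, 0 to 1 when a mouse was left out, and 1 with isotype scaling, with antibodies above the isotype controls, without low-quality cells and with all cells of cluster 7. The difference of effects between the clusters gave 0 calls under each setting run, with a lowest adjusted p of 0.106 without control mouse 2.

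The difference in the members' share of NK cells ranged from -4.14 to -0.719 points when a mouse was left out and was -1.14 of clusters 0 and 7 together, -1.80 of 5 NK clusters and -3.93 for all cells of cluster 7 as a share of all cells. A test of cell numbers with edgeR gave a log2 fold change of -0.27 (adjusted p = 0.539). The difference in the share of members with at least 1% of UMIs from Gzmd to Gzmg ranged from -21.2 to -10.1 points when a mouse was left out, and was -17.3 at 0.5% and -8.73 at 2%. The 422 genes that differed 2-fold or more between clusters 7 and 0 ranged from 406 to 443 when a mouse was left out and were 527 with 1 CPM added, 424 with thinned cells, 439 without the highest Scrublet scores and 414 without cells of 3 or more T cell UMIs. The share of members with a Gzmc UMI was 97.9% with no thinning.

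Replicate numbers did not pair the mice: same-numbered mice had correlations of -0.148, -0.249 and -0.159 of their deviations over 5802 genes. With the replicate number as a block, 11 genes were called, 9 of them among the 88, with 0 antibodies and 0 differences of effects. Of the settings planned, leaving out cells with any T cell list UMI was not possible because all 1877 members had one, and no member had over 20000 tags.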
